A study of Mus musculus with 6 samples.

Results

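The aminoacyl-tRNA synthetases are the enzymes that load each tRNA with its amino acid, and they were followed in mouse lung endothelial cells that overexpress the cell adhesion molecule L1CAM. The genes were taken from a list of 36 synthetases, 20 that serve the cytosol and 16 that serve mitochondria, the mitochondrial ones with names ending in 2. A gene was measured where a probe set was annotated with its symbol alone, which held for 34 of the 36 genes, 18 cytosolic and 16 mitochondrial, among 19938 genes in all. Where a gene had several such probe sets, the brightest over the 6 arrays was used. No measured value entered the choice of the list, but it was drawn up with earlier results of these data known.

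The L1CAM cells were mouse lung endothelial cells of C57BL/6 background that stably carry full-length mouse L1CAM in pcDNA3.1/Hygro(-), on 3 arrays. The control cells were the same lung endothelial cells carrying that vector empty, on 3 arrays. All cultures grew to confluence on gelatin in medium with serum, heparin and endothelial growth supplement. The labels call the 3 replicates of each group biological and the experiments independent. They do not say whether each transfectant was a clone or a pool, so the p-values measure the spread between cultures and may not cover separate transfections.

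Values are log2 expression per probe set after RMA, the robust multi-array average, a background correction and quantile normalization followed by one summary value per probe set. Differences are L1CAM minus control on that log2 scale, and a gene was called where limma's moderated test, adjusted by Benjamini-Hochberg over 19938 genes, gave a p under 0.05. The L1cam probe set read 10.49, 10.60 and 10.73 in L1CAM cells, against 6.50, 6.77 and 7.31 in control cells, on the sides their labels name. All 11 endothelial markers lay above the array medians (6.55 to 6.58), and 10 of them were not called, the exception being Cldn5 (-0.22, adjusted p = 0.0446). The 3 L1CAM arrays nevertheless lay below the 3 control arrays in 9 of these 11 markers, and the mean of the list was -0.10, -0.08 and -0.11 in L1CAM cells relative to the control mean. The part of this shift in the synthetase values was not tested. Of the other cell type markers, 0 of 9 fibroblast and mural, 0 of 7 leukocyte and 0 of 7 epithelial genes were called by limma. Pdgfra, the marker of the first list with the smallest p, gave an unadjusted p of 0.0479, while the smallest were 0.0783 among leukocyte and 0.169 among epithelial markers. Of all genes 6.85% were called higher and 8.19% lower. Counts of 0 to 1 in lists of 7 to 11 genes lie near those shares. Above their array's median on 3 or more arrays were 3 of 9 fibroblast and mural, 3 of 7 leukocyte and 1 of 7 epithelial markers. The lysosomal macrophage marker Cd68 read 12.00 to 12.38 over both groups, Lyz2 7.11 to 8.56, Col1a1 7.61 to 7.69 and Krt8 7.14 to 7.34. Epcam read 5.10 to 5.24 and Ptprc 4.56 to 4.86, close to the array lower quartiles (5.01 to 5.04). L1CAM replicate 1 stood apart: across genes it correlated at 0.9948 and 0.9951 with the other L1CAM arrays, against 0.9986 between those arrays. With control replicates 1, 2 and 3 it correlated at 0.9952, 0.9935 and 0.9938, so it was as close to control replicate 1 as to its own group. RNA came from whole cultures, so fewer cells making a transcript and less of it per cell cannot be told apart.

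Each synthetase recognises one amino acid and its tRNAs, and the loaded tRNA then delivers the residue to the ribosome. Mammalian cells translate in the cytosol and, separately, inside mitochondria, and most amino acids have one nuclear gene for each compartment. The enzymes fall into a pair of unrelated structural classes, and a set of the cytosolic ones is held with scaffold proteins in a multisynthetase complex. Many cytosolic synthetase genes are known targets of the transcription factor ATF4, which is made when amino acids run short or the endoplasmic reticulum is stressed. ATF4 pairs with C/EBP proteins on the C/EBP-ATF response element, whose core TGATGNAA was searched on both strands of the promoter windows.

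The promoter windows are shown because 5 cytosolic synthetase genes hold that core close to their start site. RefSeq's table for GRCm38.p6 gave windows, 250 bases before to 50 after the start, for 13 of the 20 cytosolic and 14 of the 16 mitochondrial genes. It gave none for Cars, Hars, Lars, Nars, Rars, Vars, Wars, Hars2 and Pars2, so these were not searched for any motif. The core was found in 5 of the 13 cytosolic genes with a window (38.5%) and in 0 of the 14 mitochondrial ones, against 3.97% of all 32851 windows in the table. Capitals mark the core as it reads on the printed strand, where TTGCATCA and TTTCATCA are matches of the opposite strand. Qars, the cytosolic gene that fell, is printed last and holds no match. Of the 8 called rises with a window 4 hold the core, and Mars1, Eprs, Sars and Farsb do not. The 2 uncalled genes with a window, Farsa and Kars, do not hold it either. Whether the core goes with the call was not tested.
Gars, + strand, chr6:55037751-55038050: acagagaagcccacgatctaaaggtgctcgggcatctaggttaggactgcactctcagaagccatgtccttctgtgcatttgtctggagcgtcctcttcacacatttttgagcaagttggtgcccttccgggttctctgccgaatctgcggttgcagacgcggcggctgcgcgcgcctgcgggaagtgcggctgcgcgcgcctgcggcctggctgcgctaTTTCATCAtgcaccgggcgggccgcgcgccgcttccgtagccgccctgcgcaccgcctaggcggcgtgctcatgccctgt
Iars, + strand, chr13:49681880-49682179: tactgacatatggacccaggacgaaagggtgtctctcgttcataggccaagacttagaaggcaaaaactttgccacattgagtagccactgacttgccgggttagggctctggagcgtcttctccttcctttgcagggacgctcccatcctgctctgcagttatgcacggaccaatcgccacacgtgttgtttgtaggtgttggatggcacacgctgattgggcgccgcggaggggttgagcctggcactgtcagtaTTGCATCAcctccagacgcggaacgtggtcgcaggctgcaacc
Tars, - strand, chr15:11399609-11399908: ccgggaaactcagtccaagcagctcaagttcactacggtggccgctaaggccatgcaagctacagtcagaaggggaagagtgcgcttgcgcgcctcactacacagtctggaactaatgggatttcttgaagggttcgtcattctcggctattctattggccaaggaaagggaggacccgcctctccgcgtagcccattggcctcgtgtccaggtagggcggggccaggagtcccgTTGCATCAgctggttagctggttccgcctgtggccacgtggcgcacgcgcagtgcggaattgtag
Yars, + strand, chr4:129189653-129189952: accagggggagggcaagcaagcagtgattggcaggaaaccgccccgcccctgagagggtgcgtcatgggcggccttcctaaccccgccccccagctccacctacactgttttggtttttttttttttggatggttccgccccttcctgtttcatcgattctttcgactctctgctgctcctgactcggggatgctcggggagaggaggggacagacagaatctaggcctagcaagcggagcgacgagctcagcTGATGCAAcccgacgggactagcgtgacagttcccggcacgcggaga
Aars, + strand, chr8:111033592-111033891: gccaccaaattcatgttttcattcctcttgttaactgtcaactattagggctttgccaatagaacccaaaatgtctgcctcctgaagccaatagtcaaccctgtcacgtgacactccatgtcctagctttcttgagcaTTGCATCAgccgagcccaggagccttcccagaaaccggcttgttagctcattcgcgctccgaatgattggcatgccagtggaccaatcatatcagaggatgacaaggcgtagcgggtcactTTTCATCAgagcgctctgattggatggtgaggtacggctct
Qars, + strand, chr9:108507755-108508054: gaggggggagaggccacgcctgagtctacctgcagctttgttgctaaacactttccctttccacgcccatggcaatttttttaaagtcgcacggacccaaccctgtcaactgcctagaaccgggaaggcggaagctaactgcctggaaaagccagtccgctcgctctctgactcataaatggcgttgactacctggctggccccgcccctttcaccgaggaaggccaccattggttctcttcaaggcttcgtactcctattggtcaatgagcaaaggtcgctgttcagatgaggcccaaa
Counted from the start site, the match began at -30 in Gars, 7 in Iars, -15 in Tars and 3 in Yars, and at -112 and 9 in Aars. A match is a run of letters, not a site shown to be bound, and its absence says nothing of the factor. The gamma-activated site TTCNNNGAA reads the same on both strands. Aars and Kars held it among the 13 cytosolic genes with a window (15.4%), and Nars2 among the 14 mitochondrial ones (7.14%). Of all windows 8.30% held it. The core of the interferon-stimulated response element was searched on both strands. Of the same genes 1 cytosolic (Qars, 7.69%) and 0 mitochondrial ones held it, against 3.44% of all windows.

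Cytosolic synthetases were higher in L1CAM cells with few exceptions, while most mitochondrial ones did not pass the test. Of 18 measured cytosolic genes 15 rose, 1 fell and 2 were not called, against 6.85% of all genes tested that rose and 8.19% that fell. Of 16 mitochondrial genes 3 rose, 0 fell and 13 were not called, and by limma the unadjusted p was under 0.05 for 7 of those 13, of which 2 were lower. Every called gene, 15.0% of all genes in either direction, also lies under that unadjusted threshold, and the full share was not counted. The median difference was 0.75 for the cytosolic and 0.16 for the mitochondrial genes, beside 0.02 for all genes tested. Synthetase probe sets were brighter than most, and among the 11409 genes that passed their array's median in 3 or more arrays 10.6% rose and 13.4% fell. All 34 synthetases were among those brighter genes. Their array means were 10.51 to 11.30 for cytosolic and 8.40 to 8.64 for mitochondrial genes. The part of this difference in level in the contrast between the kinds, and in the pairs below, was not tested. The 3 L1CAM arrays lay above all 3 control arrays in 17 of the 18 cytosolic and 9 of the 16 mitochondrial genes, an order seen in 18.6% of all genes. Mars2 is among those 9, although its L1CAM replicate 1 and control replicate 1 both read 8.38 after rounding. An ordinary linear model without the variance prior called 5 cytosolic rises, 0 cytosolic falls and 0 mitochondrial changes, where it called 1.26% of all genes higher and 1.66% lower. Array weights gave 7 mitochondrial rises (12.8% of all genes rose and 13.2% fell), and testing the brighter genes alone gave 6 (13.7% rose and 16.3% fell).

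**Figure D1:**
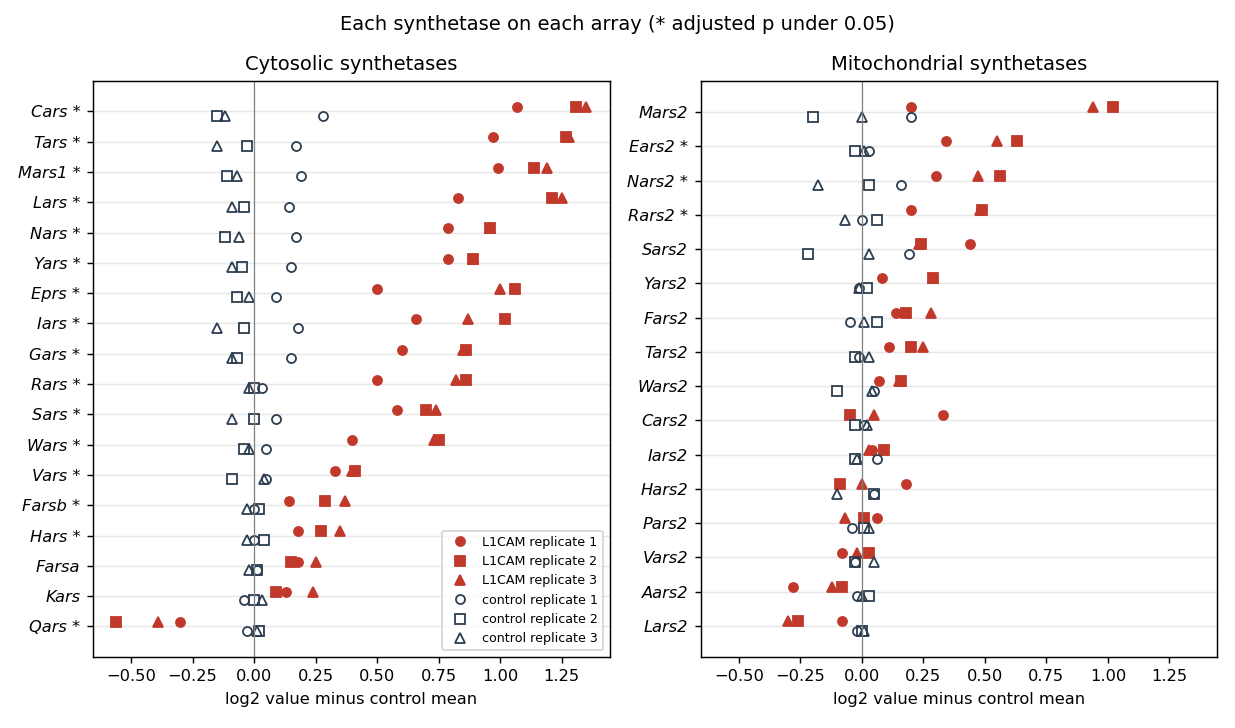
The log2 value of each measured synthetase on each array minus the mean of the 3 control arrays, with L1CAM arrays in filled red and control arrays in open dark symbols and replicates told apart by shape. Red points of 17 cytosolic genes lie right of the control points and those of Qars left, while those of many mitochondrial genes lie among or next to the control points.

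The strongest rises were those of the enzymes for cysteine, threonine, methionine and leucine. Cars, the cysteinyl enzyme, read 10.59, 10.83 and 10.87 in L1CAM cells, against 9.80, 9.37 and 9.40 in control cells. Its rise of 1.24 (SE 0.13, 2.36-fold, limma adjusted p = 0.00137) ranked 77 of 19938 genes by difference. All L1CAM arrays lay above all control arrays, with L1CAM replicate 1 the lowest of its group and control replicate 1 the highest of its own. Tars, the threonyl enzyme and one of the genes with the response element core, read 9.95, 10.25 and 10.26 in L1CAM cells, against 9.15, 8.95 and 8.83 in control cells. Its rise was 1.18 (SE 0.11, 2.26-fold, adjusted p = 0.000934). L1CAM replicate 1 was again the lowest of its group and control replicate 1 the highest of its own.

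Mars1 loads methionine, on the initiator tRNA as well, and sits in the multisynthetase complex. It read 11.26, 11.41 and 11.46 in L1CAM cells, against 10.46, 10.16 and 10.20 in control cells, and rose by 1.11 (SE 0.10), with an adjusted p of 0.000726. Lars, the leucyl enzyme, known also as a leucine sensor for mTORC1 signalling, read 10.88, 11.26 and 11.30 in L1CAM cells, against 10.19, 10.01 and 9.96 in control cells. It rose by 1.09 (SE 0.12, 2.13-fold, adjusted p = 0.00184). These 4 genes were the synthetases whose difference passed 1 on the log2 scale, and 0.652% of all genes were called with a rise of at least that size.

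A middle group rose by 0.63 to 0.91. Nars, which loads asparagine, read 12.32, 12.49 and 12.49 in L1CAM cells, against 11.70, 11.41 and 11.47 in control cells, a difference of 0.91 (adjusted p = 0.00116). Yars, the tyrosyl enzyme, read 11.48, 11.58 and 11.58 in L1CAM cells, against 10.84, 10.64 and 10.60 in control cells, a difference of 0.86 (SE 0.08, adjusted p = 0.000821). Eprs joins the glutamyl and prolyl enzymes in one protein. It read 10.88, 11.44 and 11.38 in L1CAM cells, against 10.47, 10.31 and 10.36 in control cells, and its difference of 0.85 had the largest standard error of the measured cytosolic synthetases (0.14). L1CAM replicate 1 lay well below the other L1CAM arrays for this gene, yet above every control array.

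Iars, the isoleucyl enzyme, was the synthetase with 2 single-symbol probe sets. The brighter read 12.13, 12.49 and 12.34 in L1CAM cells, against 11.65, 11.43 and 11.32 in control cells, a difference of 0.85 (adjusted p = 0.0038). The other read 11.85, 12.06 and 12.04 in L1CAM cells, against 11.05, 10.88 and 10.89 in control cells, a difference of 1.04 (adjusted p = 0.00047 with all probe sets tested as separate features, of which 6.62% rose and 7.91% fell). Both were called in the same direction. Gars, the glycyl enzyme, whose one gene gives both the cytosolic and the mitochondrial form, rose by 0.78 to 12.07 ± 0.15 in L1CAM cells, against 11.30 ± 0.13 in control cells (SD, n = 3 arrays each). Rars, the arginyl enzyme, measured 12.63 ± 0.19 in L1CAM cells and 11.90 ± 0.02 in control cells, and Sars, the seryl enzyme, 12.20 ± 0.09 and 11.53 ± 0.09 in the same order (SD, n = 3 arrays each). Their rises were 0.72 and 0.67.

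Wars, the tryptophanyl enzyme, is the synthetase best known as induced by interferon-gamma. It read 11.71, 12.06 and 12.04 in L1CAM cells, against 11.36, 11.27 and 11.29 in control cells, and rose by 0.63 (SE 0.10, 1.54-fold, adjusted p = 0.00645). Of 9 measured interferon-gamma index genes 4 rose (44.4%), 0 fell and 5 were not called, beside 6.85% of all genes that rose. The 4 that rose were the guanylate-binding proteins Gbp3 (2.02) and Gbp7 (1.85), the chemokine Cxcl10 (1.94) and the GTPase Irgm1 (0.89). The rise of Wars was smaller than each of theirs and than those of 11 other cytosolic synthetases. It was larger than the differences of the 5 index genes not called, which were -0.05 to 0.27, and than the list median of 0.27. The part of interferon-gamma in the rise of Wars was not tested.

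Smaller rises were measured for valine, phenylalanine and histidine. Vars, the valyl enzyme, rose by 0.38 (SE 0.06, adjusted p = 0.00775), reading 10.42, 10.50 and 10.49 in L1CAM cells, against 10.14, 10.00 and 10.13 in control cells. The phenylalanyl enzyme is built from an alpha subunit, Farsa, and a beta subunit, Farsb. Farsb rose by 0.27 (adjusted p = 0.0367) and Farsa gave 0.19 (adjusted p = 0.0506), with L1CAM arrays above control arrays for both. The subunits thus fell on either side of the threshold, and the difference between their changes was not tested. Hars, the histidyl enzyme, rose by 0.26 (adjusted p = 0.0288). Farsb and Hars kept their call without L1CAM replicate 1 alone and lost it without each other array, at adjusted p of 0.0822 to 0.126. The other 13 cytosolic rises were called whichever array was left out. Among all genes 12.0% rose and 12.9% fell without L1CAM replicate 1, 3.12% and 3.73% without L1CAM replicate 2, and 2.78% and 3.43% without L1CAM replicate 3. Without control replicate 1 4.27% rose and 4.8% fell, without control replicate 2 2.28% and 2.9%, and without control replicate 3 2.37% and 2.96%.

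Qars fell and Kars was not called, and both belong to the multisynthetase complex. Kars, the lysyl enzyme of cytosol and mitochondria, read 10.05, 10.01 and 10.16 in L1CAM cells, against 9.88, 9.92 and 9.95 in control cells, a difference of 0.16 (adjusted p = 0.13), with all L1CAM arrays above all control arrays. Qars, the glutaminyl enzyme, read 10.90, 10.64 and 10.81 in L1CAM cells, against 11.17, 11.22 and 11.21 in control cells. It fell by 0.42 (SE 0.07, 1.33-fold lower, adjusted p = 0.0106), and all its L1CAM arrays lay below all control arrays. The call was lost without control replicate 2 (adjusted p = 0.055) and without control replicate 3 (adjusted p = 0.0528), while the difference stayed between -0.47 and -0.35 whichever array was left out.

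**Figure D2:**
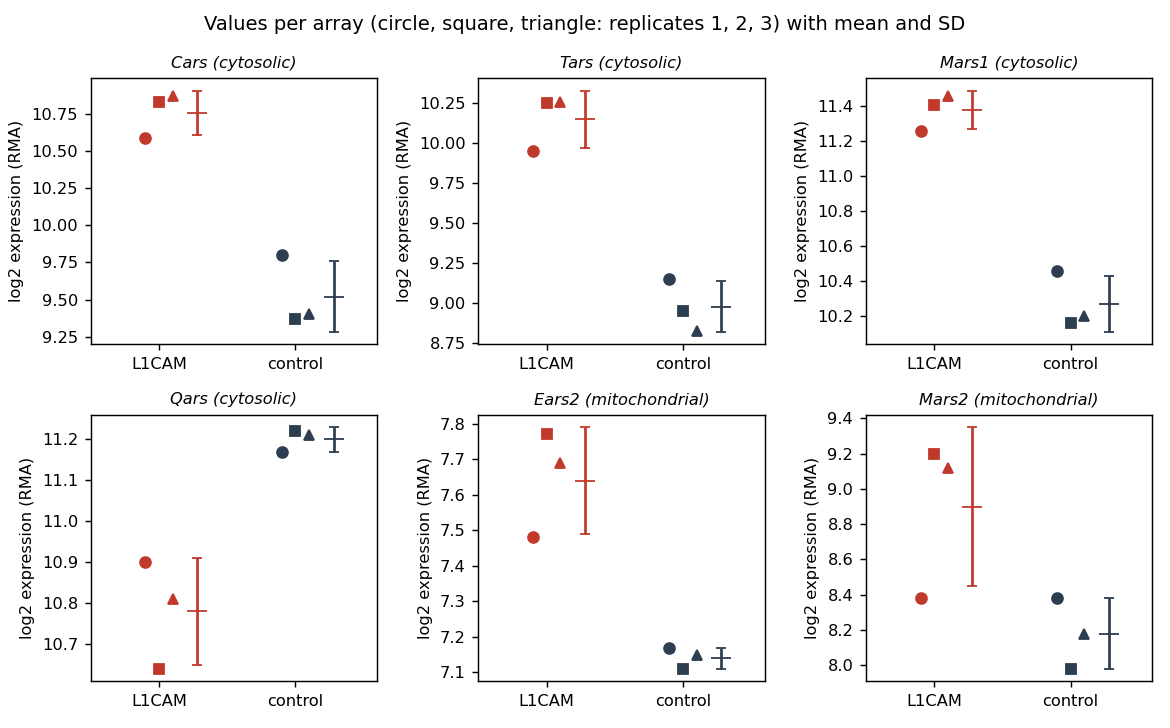
Log2 expression of 6 synthetases on each array, L1CAM left of control, with points shaped by replicate and the mean ± SD of 3 arrays beside them. Cars, Tars, Mars1 and Ears2 are higher on every L1CAM array, Qars is lower on every one, and Mars2 in L1CAM replicate 1 reads 8.38, as in control replicate 1.

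Enzymes inside and outside the complex both rose. Of the 7 measured complex enzymes 5 rose, 1 fell and 1 was not called, with a median of 0.85, and of the 11 outside it 10 rose and 1 was not called, with a median of 0.67. The scaffold genes of the complex had 0 of 3 called. All these enzyme and scaffold genes are among the brighter genes, of which 10.6% rose and 13.4% fell. For 3 genes a count of 0 is near that background. Eef1e1, which also carries the name AIMP3, read 9.92, 10.58 and 10.62 in L1CAM cells, against 9.63, 9.82 and 9.78 in control cells, a difference of 0.63 (adjusted p = 0.0509). Aimp2 measured 0.20 (adjusted p = 0.0865), and Aimp1 -0.04 (adjusted p = 0.729). The unadjusted p was under 0.05 for Eef1e1 (0.00776) and Aimp2 (0.0178). By enzyme class, 9 of 10 class I cytosolic genes rose and 1 fell, with a median of 0.85. Eprs was counted here by its glutamyl part, although its prolyl part belongs to class II. Of 8 measured class II genes 6 rose and 2 were not called, with a median of 0.47. These medians describe the lists and were not tested against each other.

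The alanyl and aspartyl enzymes had no probe set of their own. The probe set annotated with both Aars and Exosc6, an exosome subunit, read 10.72, 10.83 and 10.81 in L1CAM cells, against 10.07, 9.79 and 9.84 in control cells. Added to the fit, it rose by 0.89 (SE 0.08, adjusted p = 0.000915). Its signal may come from either gene, so it is not counted among the 34. Dars was not analysed here.

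Among the mitochondrial enzymes, those for glutamate, asparagine and arginine rose. Ears2, the mitochondrial glutamyl enzyme, read 7.48, 7.77 and 7.69 in L1CAM cells, against 7.17, 7.11 and 7.15 in control cells. It rose by 0.50 (SE 0.08, 1.41-fold, adjusted p = 0.00759) and was the mitochondrial rise called whichever array was left out. Nars2, for asparagine, read 8.51, 8.77 and 8.68 in L1CAM cells, against 8.37, 8.24 and 8.03 in control cells, and rose by 0.44 (adjusted p = 0.0297). Rars2, for arginine, read 9.09, 9.38 and 9.37 in L1CAM cells, against 8.89, 8.95 and 8.82 in control cells, and rose by 0.39 (adjusted p = 0.0243). Groups did not overlap for these 3 genes, but Nars2 lost its call without L1CAM replicate 2 or 3 or control replicate 2 or 3, and Rars2 without each array except L1CAM replicate 1.

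Mars2, the mitochondrial methionyl enzyme, had the largest mean difference of its kind without being called. It read 8.38, 9.20 and 9.12 in L1CAM cells, against 8.38, 7.98 and 8.18 in control cells, a difference of 0.72 (SE 0.21, adjusted p = 0.0584). Without L1CAM replicate 1 the difference was 0.98, with an adjusted p of 0.000413. Mars2 was also called with all 6 arrays when the brighter genes alone were tested (adjusted p = 0.0481) and with array weights (adjusted p = 0.00225), and its adjusted p ranged from 0.000413 to 0.221 over all alternatives. Without that array the mitochondrial genes counted 7 rises (Mars2, Ears2, Nars2, Rars2, Yars2, Fars2 and Tars2) and 1 fall (Lars2), and without L1CAM replicate 2 or 3 or control replicate 2 or 3 they counted 1 rise. All genes called higher numbered 2386 without L1CAM replicate 1 (12.0% of all genes), and 454 to 852 without any other array.

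The remaining mitochondrial genes lay closer to 0 or were not separated. Sars2 measured 0.30 (adjusted p = 0.118), Yars2 0.22 (adjusted p = 0.0805), Fars2 0.20 (adjusted p = 0.0729) and Tars2 0.19 (adjusted p = 0.0642), all with L1CAM arrays above control arrays. Wars2, for tryptophan, measured 0.13 (adjusted p = 0.225). The groups overlapped for Cars2 (0.11), Iars2 (0.05), Hars2 (0.03), Pars2 and Vars2 (-0.02), and Pars2, for proline, averaged 6.69 in both groups, near the array medians. Lars2, for leucine, read 7.85, 7.67 and 7.63 in L1CAM cells, against 7.91, 7.93 and 7.94 in control cells, and Aars2, for alanine, 7.59, 7.79 and 7.75 in L1CAM cells, against 7.85, 7.90 and 7.87 in control cells. Both were lower on every L1CAM array (-0.21 and -0.16), an order seen in 16.0% of all genes, and neither was called (adjusted p = 0.0763 and 0.156).

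The enzymes for one amino acid were set against each other in 14 pairs, those with 1 measured gene of each kind, with Eprs entering for glutamate and for proline. The cytosolic change exceeded the mitochondrial one in all 14, by 0.23 to 1.30 with a median of 0.48. Phenylalanine was not among them, since its cytosolic enzyme has a pair of subunit genes, and it did not show that gap. Farsa minus Fars2, set to the control mean, was 0.04, -0.02 and -0.02 in L1CAM cells, against 0.07, -0.05 and -0.03 in control cells, a mean of 0.00. Farsb minus Fars2 was 0.01, 0.12 and 0.10 in L1CAM cells, against 0.06, -0.03 and -0.03 in control cells, a mean of 0.08, and the groups overlapped for both. The widest gap of the 14 was that for leucine, where Lars minus Lars2, taken within each array and set to the control mean, was 0.91, 1.46 and 1.55 in L1CAM cells, against 0.16, -0.04 and -0.11 in control cells. Cysteine (1.13) and threonine (0.98) followed. The gap was narrowest for histidine (0.23), arginine (0.33) and glutamate (0.35), whose mitochondrial enzymes Rars2 and Ears2 also rose. For methionine it was 0.78 in L1CAM replicate 1, against 0.11 and 0.25 in the other L1CAM arrays and -0.01, 0.08 and -0.07 in control cells, and averaged 0.38. An exact two-sided permutation test over the 3 and 3 arrays gave p = 0.1, the smallest the design allows, for 12 pairs and p = 0.2 for serine and histidine, so no pair could reach 0.05. Hars and Hars2 are next to each other on chromosome 18, with no other protein-coding gene between their starts in RefSeq's GRCm38.p6 table, and Hars rose whereas Hars2 was not called.

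**Figure D3:**
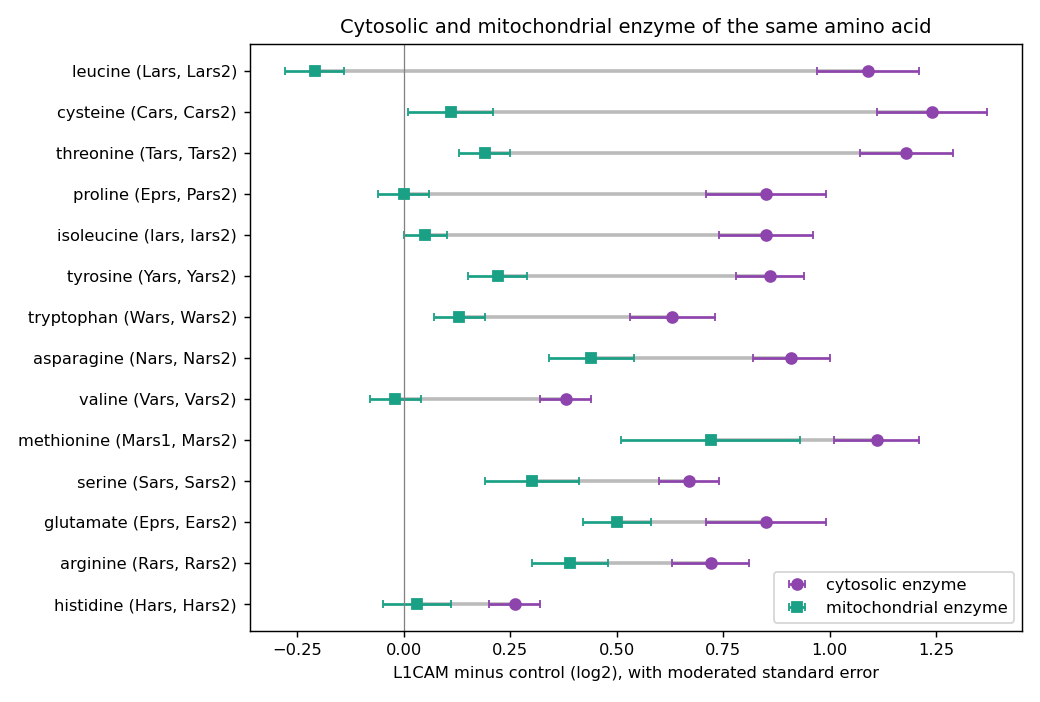
L1CAM minus control on the log2 scale for the cytosolic (circles) and mitochondrial (squares) enzyme of 14 amino acids, with moderated standard errors, sorted by the gap. The circle lies right of the square in each of these 14 pairs, by 1.30 for leucine and 0.23 for histidine, and phenylalanine, with a mean gap of 0.00 for Farsa and 0.08 for Farsb, is not drawn.

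The share of each array in the result differed. Averaged over the 18 cytosolic genes and set to the control mean, L1CAM replicates 1, 2 and 3 read 0.52, 0.70 and 0.73, and control arrays 0.09, -0.04 and -0.05. L1CAM replicate 1 was the lowest L1CAM array in all 15 cytosolic genes that rose, and control replicate 1 the highest control array in 13 of them. The mitochondrial mean lay at 0.13, 0.21 and 0.20 in L1CAM replicates 1, 2 and 3, and at 0.04, -0.03 and -0.01 in control arrays. Replicate 1 of each group stood nearest to the other group in the mean of 14 measured index genes of the cell cycle as well, which lay at -0.45, -1.62 and -1.55 in L1CAM arrays and at -0.23, 0.16 and 0.07 in control arrays. In the full fit 13 of these fell (92.9%), among them Cenpf (-1.63) and Bub1 (-1.59). All 14 are among the brighter genes, of which 13.4% fell. The count of falls was 14 without L1CAM replicate 1 and at most 2 without any other array. The part of the cell cycle genes in the synthetase values was not tested. The cytosolic rises numbered 13 to 16 whichever array was left out.

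Of 33 cytosolic initiation factors and their regulators 5 rose (15.2%) and 0 fell, with a median of 0.06, beside 10.6% and 13.4% of the brighter genes, to which all 33 belong. The list was not tested against the synthetases. Eif4ebp1, an inhibitor of cap-dependent initiation and a known ATF4 target, rose by 0.99 (adjusted p = 0.00138), Eif2s2, a subunit of the factor that brings the initiator tRNA, by 0.58, Eif2b3 by 0.47 and Eif3c by 0.47. Eif4ebp1 alone of these 4 was called whichever array was left out, and the list count was 1 to 3 without any array but L1CAM replicate 1, and 8 without that one. Of 6 cytosolic elongation genes, all among the brighter ones, Eef2k, the kinase that inhibits elongation factor 2, rose (0.48, adjusted p = 0.00504). The other 5 were not called, and the list median was -0.02.

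Of 9 mitochondrial translation factors, all with differences above 0, 3 rose (33.3%) and 0 fell, with a median of 0.22. Of the brighter genes, to which all 9 belong, 10.6% rose and 13.4% fell. The factors that rose were Gfm2, of ribosome recycling (0.48), the elongation factor Tsfm (0.29) and the initiation factor Mtif2 (0.28). Gfm2 was called whichever array was left out, and the count was 1 without L1CAM replicate 2, L1CAM replicate 3, control replicate 2 or control replicate 3, 2 without control replicate 1 and 5 without L1CAM replicate 1. Of 77 mitochondrial ribosomal protein genes 10 rose (13.0%) and 6 fell (7.79%), with a median of 0.09. All 77 are among the brighter genes, of which 10.6% rose and 13.4% fell, so the share that rose was near the background and the share that fell below it. Mrps18b (0.42), Mrps25 (-0.52) and Mrpl51 (-0.46) were called whichever array was left out. Without L1CAM replicate 1 that list counted 20 rises and 9 falls, and without each other array 3 to 7 rises and 2 to 4 falls.

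Glutamine reaches mitochondrial tRNA by amidation of glutamate loaded by Ears2, through the enzyme made of Qrsl1, Gatb and Gatc. Gatc rose by 0.23 (adjusted p = 0.0399), Gatb measured 0.27 (adjusted p = 0.0785) and Qrsl1 0.07 (adjusted p = 0.512). Of 11 measured tRNA amidation, selenocysteine, formylation, CCA-adding and editing genes 2 rose (18.2%), Gatc and the D-aminoacyl-tRNA deacylase Dtd1 (0.27, adjusted p = 0.0358), and 0 fell. All 11 are among the brighter genes, of which 10.6% rose and 13.4% fell. Gatc and Dtd1 both kept their call without L1CAM replicate 1 and lost it without each other array.

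Genes of the ATF4 axis rose in the same cells. Of 27 genes, none of them a synthetase, 21 rose (77.8%) and 0 fell, with a median of 1.01. All 27 are among the brighter genes, of which 10.6% rose and 13.4% fell. The average of the list, set to the control mean, was 0.78, 1.17 and 1.17 in L1CAM cells, against 0.21, -0.11 and -0.10 in control cells. Without any 1 array 17 to 21 were called. Trib3, Aldh1l2, Chac1 and Atf5 led the list, and Atf4 itself read 10.25, 10.39 and 10.52 in L1CAM cells, against 9.61, 9.33 and 9.25 in control cells, a rise of 0.99 (adjusted p = 0.00181). L1CAM replicate 1 was the lowest L1CAM array and control replicate 1 the highest control array in Atf4, as in Cars and Tars. Several genes of this list were among those already known to be raised in these data, so its count is no independent support.

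**Figure D4:**
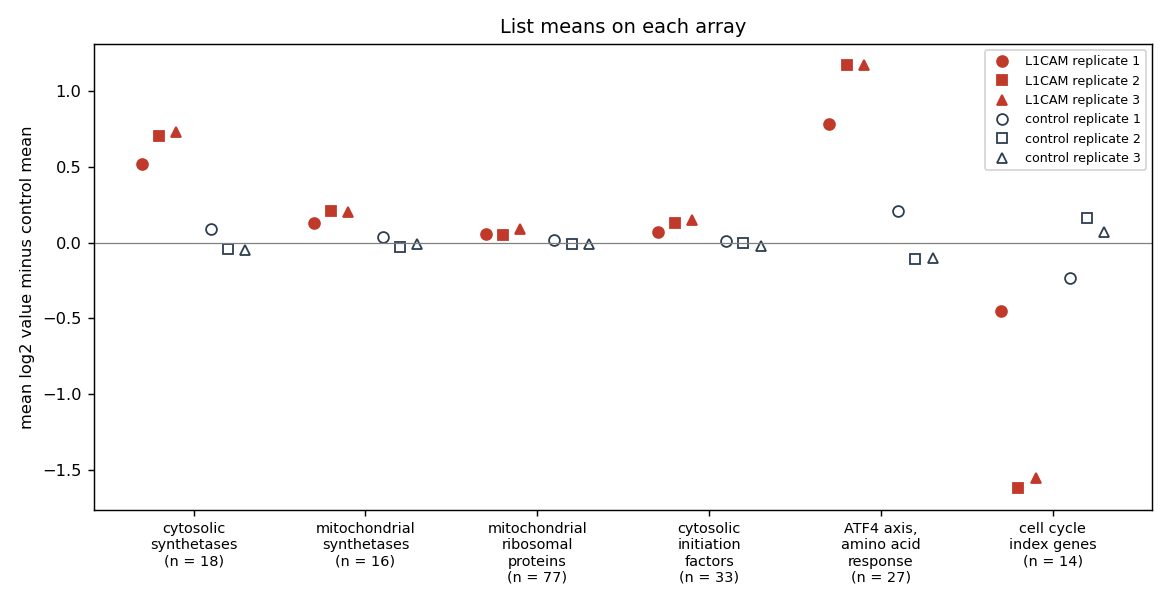
Mean log2 value of each gene list on each array minus the control mean, L1CAM arrays (filled red) left of control arrays (open dark). Cytosolic synthetases lie at 0.52 to 0.73 in L1CAM cells and mitochondrial ones at 0.13 to 0.21, between the ATF4 axis at 0.78 to 1.17 and cell cycle genes at -0.45 to -1.62.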

How the data were processed

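Total RNA of 6 cultures was hybridised to 6 Affymetrix arrays. The authors deposited log2 values per probe set from RMA, run in Expression Console 1.1 according to the submitters' processing notes. The genome build of the array design is not given in the sources used here. Of 35512 probe sets, 21789 carried a single gene symbol, 1621 carried several, and 12102 had no gene symbol in the platform annotation. One probe set per gene, the brightest with a single symbol, left 19938 genes, of which 19856 were in RefSeq's GRCm38.p6 table. Precision is limited by having 3 arrays per group.

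Group differences were fitted in limma 3.58.1 (lmFit, eBayes; R 4.3.3), two-sided, with Benjamini-Hochberg adjustment over all genes. Pair differences had an exact permutation test in scipy 1.17.1 (Python 3.11.15). On simulated data for this comparison with 19938 genes, 92% of the 50 genes changed by 0.5 (log2) were recovered. Of those changed by 1, 2 or 4, 100% were recovered, and 8 unchanged genes were called. How far this recovery holds for the measured arrays, where L1CAM replicate 1 stood apart, was not tested. Mars2, with a difference of 0.72 (SE 0.21), was not called in the full fit.

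The members and lists were chosen with earlier results of these data known. All synthetases are named, and of every other list at most 4 called genes per direction, or the 2 of smallest p where none was called. Atf4, Aimp1, Gatb, Qrsl1 and the probe set shared by Aars and Exosc6 were named after their values were seen. The alternatives were a repeated quantile normalization, centring on array medians, leaving out dim probe sets, averaging or separating probe sets, a trended prior, an ordinary linear model, array weights, the replicate block and leaving out each array.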

Additional observations from a re-analysis of the deposited data

How the results depend on the processing

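The cytosolic rises numbered 13 to 16 under every alternative run except the ordinary linear model, which called 5 higher and 0 lower, and 0 mitochondrial genes higher. In that model 17 cytosolic genes were higher and 1 lower at an unadjusted p under 0.05, as were 6 and 1 of the mitochondrial genes. The share of all genes at that unadjusted threshold was not counted. At the adjusted threshold the model called 251 of all genes higher (1.26%) and 330 lower (1.66%). Array weights gave 7 mitochondrial rises and 1 fall, with 2557 genes higher and 2634 lower in all. Leaving out dim probe sets gave 6 mitochondrial rises and 1 fall, with fewer genes tested. With any 1 array left out, cytosolic rises numbered 13 to 16 and falls 0 to 1, mitochondrial rises 1 to 7 and falls 0 to 1, and all genes called 454 to 2386 higher and 579 to 2566 lower. The highest of these counts came without L1CAM replicate 1, and the cause was not tested. The median difference stayed between 0.70 and 0.85 for cytosolic and between 0.14 and 0.19 for mitochondrial genes in those fits.

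Replicate numbers are shared by both groups, but the deviations of same-numbered arrays correlated at -0.10, -0.10 and -0.03 across genes, so they were not taken as pairs. With the replicate block, where 923 genes in all rose (4.63%) and 1144 fell (5.74%), 13 cytosolic genes rose and 1 fell, and 2 mitochondrial genes rose. Farsb (adjusted p = 0.0707), Hars (0.0635) and Nars2 (0.0615) were not called in that limma fit.

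No called synthetase changed direction under any alternative, and all 14 pair differences kept their sign. Signs turned for 4 mitochondrial genes that were not called: Hars2 gave -0.01 with array weights and -0.04 to 0.09 with 1 array left out, Vars2 gave 0.01 with repeated quantile normalization and -0.05 to 0.01 with 1 array left out, and with 1 array left out Pars2 ranged from -0.03 to 0.03 and Cars2 from -0.00 to 0.19.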
